A study of Mus musculus with 16 samples.

Results

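Cxcl1, Cxcl2, Cxcl5 and Csf3, 4 mouse genes whose products draw neutrophils out of the blood or release them from the marrow, were followed in livers and liver-derived inflammatory cells during concanavalin A hepatitis. The genes were taken by the names on the array, from spots that are not controls. Each was represented by 1 probe and 1 spot per array, so the set comprised 4 of 41174 probes and 4 of 20442 named genes. The probes lie, in the array design's mm8 positions, at chr5:91968019-91968078 (Cxcl1, NM_008176), chr5:91980708-91980767 (Cxcl2, NM_009140), chr5:91836379-91836438 (Cxcl5, NM_009141) and chr11:98519390-98519449 (Csf3, NM_009971). All 64 spots of the set were free of outlier and saturation flags (0 of 64 for each).

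All mice were C57Bl/6 females that had received 300 microgram of concanavalin A, a lectin from jack beans whose T cell activation injures the liver, so no group is untreated. Treated mice also received 100000 adipose tissue-derived stem cells, expanded in culture from inguinal fat of C57Bl/6 mice, through the tail vein. The livers formed 4 groups of 3: at 2 h after the lectin with stem cells given at once (livers 8, 9 and 10) or with none (11, 12 and 13), and at 5 h with stem cells given at 3 h (1, 2 and 3) or with none (4, 5 and 6). Hepatic inflammatory cells at 5 h formed 2 groups of 2, with stem cells at 3 h (samples 987 and 989) and with none (983 and 985). The labels of 983 and 985 conflict: their source name mentions stem cells, while their description and treatment entry, which were followed here, name the lectin only. Every comparison of treated with untreated cells rests on that reading. The age of the mice, any pooling and the method of cell isolation were not stated in the sources used here. The samples carry separate mouse numbers. The p-values reflect how far these samples differ, which is a spread between mice only if none were pooled.

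CXCL1, CXCL2 and CXCL5 belong to the CXC chemokines that carry the ELR motif, and in the mouse they act on neutrophils mainly through the receptor CXCR2. Activated macrophages, endothelium, stromal cells and hepatocytes make them under TNF, IL-1 and IL-17 through NF-kB, and CXCL2 is also an immediate product of activated myeloid cells. Csf3 encodes granulocyte colony-stimulating factor, which drives neutrophil production and release through its receptor CSF3R. In the injured liver, neutrophils gathered by these signals lodge in the sinusoids and add to tissue damage.

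Values are log2 signals relative to the array's own 75th percentile, 0 being that percentile. They compare 1 gene between arrays, and not 1 gene with another. A spot was counted as measured where the scanner software called it well above background, and a dimmer spot gives only an upper bound. The share of spots well above background ran from 52.1% to 62.5% over the arrays. Changes were tested with limma over all genes of a fit, with Benjamini-Hochberg adjustment and a threshold of 0.05.

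Livers 10 (stem cells, 2 h) and 13 (none, 2 h) had the lowest value of their groups in all 4 genes, so the 4 genes are given with and without them. They had been singled out in earlier results of these same arrays for low inflammatory gene levels, chemokines included, so results without them are no independent test and describe the remaining livers only. Against its labels the tissue read as stated. All 11 measured hepatocyte markers were above background in every liver, with a summed linear signal of 4429 to 7204 against 106 to 464 in the cell samples, where 10 or 11 of them were still detected. Markers of T cells, NK cells, B cells and monocytes were far higher in the cells than in any liver: the summed B cell markers, for example, were 119 to 218 in cells and 1.64 to 5.80 in livers.

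Promoter sequence was at hand for 2 of the 4 genes, Cxcl1 and Cxcl2, whose levels correlated over the 12 livers (r = 0.90) and less so without livers 10 and 13 (r = 0.57, n = 10). The 250 bases before the RefSeq start of each (GRCm38.p6, plus strand, chr5:90890995-90891244 for Cxcl1 and chr5:90903649-90903898 for Cxcl2) are printed 5′ to 3′, with matches to the NF-kB consensus in capitals.
Cxcl1: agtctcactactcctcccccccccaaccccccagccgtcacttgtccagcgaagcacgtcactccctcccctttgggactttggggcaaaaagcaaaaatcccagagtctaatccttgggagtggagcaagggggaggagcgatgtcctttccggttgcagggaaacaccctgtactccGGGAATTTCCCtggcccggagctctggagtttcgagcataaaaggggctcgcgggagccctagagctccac
Cxcl2: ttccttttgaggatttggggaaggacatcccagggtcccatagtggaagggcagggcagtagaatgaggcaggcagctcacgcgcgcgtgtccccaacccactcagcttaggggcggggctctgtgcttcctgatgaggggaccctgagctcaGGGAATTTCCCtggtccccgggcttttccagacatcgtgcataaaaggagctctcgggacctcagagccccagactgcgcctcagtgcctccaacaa
The longest stretch the windows share is GGGAATTTCCCTGG, 14 bases that begin with the capitals, 71 bases before the start in Cxcl1 and 97 before it in Cxcl2. In each gene the capitals hold overlapping matches on the plus and the minus strand. Cxcl3, a neighbouring ELR chemokine gene, also held a match on the plus strand, from 73 to 64 bases before its start, and Ppbp held none. A match to this consensus on either strand was present in 7.25% of the 32851 promoter windows of this length. The AP-1 motif TGANTCA, searched on both strands and present in 6.75% of the windows, had no match in Cxcl1 or Cxcl2. These matches describe the sequence and were not tied to binding.

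Cxcl1 (KC) set liver apart from the isolated cells, as Cxcl5 and Csf3 did at 5 h, but unlike them it was measured in the cells. In livers at 2 h the log2 signal was 5.91, 6.22 and -0.70 with the lectin alone (livers 11, 12 and 13) and 6.51, 6.13 and 1.63 with stem cells (8, 9 and 10). At 5 h it was 5.23, 6.17 and 6.07 with the lectin alone (4, 5 and 6) and 5.55, 5.45 and 5.06 with stem cells (1, 2 and 3). Apart from livers 10 and 13, all livers therefore lay between 5.06 and 6.51, at either time and with either treatment. The inflammatory cells gave -1.62 and -1.46 without stem cells and -2.26 and -3.40 with them, below every liver, and every Cxcl1 spot was well above background. The group means ran from 5.82 ± 0.52 (SD, n = 3) in 5 h livers without stem cells through 5.35 ± 0.26 with them, 4.76 ± 2.72 and 3.81 ± 3.91 in the 2 h livers with and without stem cells, to -1.54 ± 0.12 and -2.83 ± 0.81 (n = 2) in the cells without and with them. Among the 4 liver groups no neighbours in that order differed beyond their spread.

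Cxcl2 (MIP-2) was measured on all 16 arrays and, unlike Cxcl1, reached the same range in the cells as in the livers. The 2 h livers gave 2.10, 1.45 and -2.63 with the lectin alone and 1.00, 1.52 and -2.22 with stem cells, in the order of liver numbers used for Cxcl1. The 5 h livers gave 0.13, 1.12 and -0.08 with the lectin alone and -0.17, 0.38 and 0.16 with stem cells. Leaving aside livers 10 and 13, the 2 h livers reached higher values than the 5 h livers, and 1 liver at 5 h (5, at 1.12) overlapped them. The cells gave 0.66 and 0.73 without stem cells and 0.78 and 0.11 with them, within the range of the 5 h livers. All 6 group means lay between 0.10 and 0.70, closer together than the SDs of the 2 h groups (2.57 and 2.03).

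Cxcl5 (LIX) was found in liver and not in the cells. At 2 h its log2 signal was -1.77, -2.53 and -5.80 with the lectin alone and -3.47, -3.36 and -4.55 with stem cells, livers 13 and 10 being not well above background. At 5 h it was -1.81, -0.61 and -0.47 with the lectin alone and -1.88, -1.46 and -1.27 with stem cells, measured on all 6 arrays. The 5 h livers thus occupied the upper end of the range, and 1 liver at 2 h (11) reached into it. In the cells all 4 spots were not well above background, at -6.98 and -7.27 without stem cells and -6.65 and -7.22 with them.

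Csf3 had the clearest dependence on time. At 2 h it was well above background in 1 of 6 livers: the values were -3.49 (liver 11, measured), -4.20 and -5.57 with the lectin alone, and -4.83, -5.18 and -6.16 with stem cells. At 5 h it was measured in 6 of 6 livers, at -2.51, -2.07 and -3.10 with the lectin alone and -2.56, -1.81 and -2.34 with stem cells. Every 5 h liver lay above every 2 h liver. In the cells the 4 spots were not well above background, at -6.38 and -6.68 without stem cells and -5.02 and -6.35 with them.

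**Figure D1:**
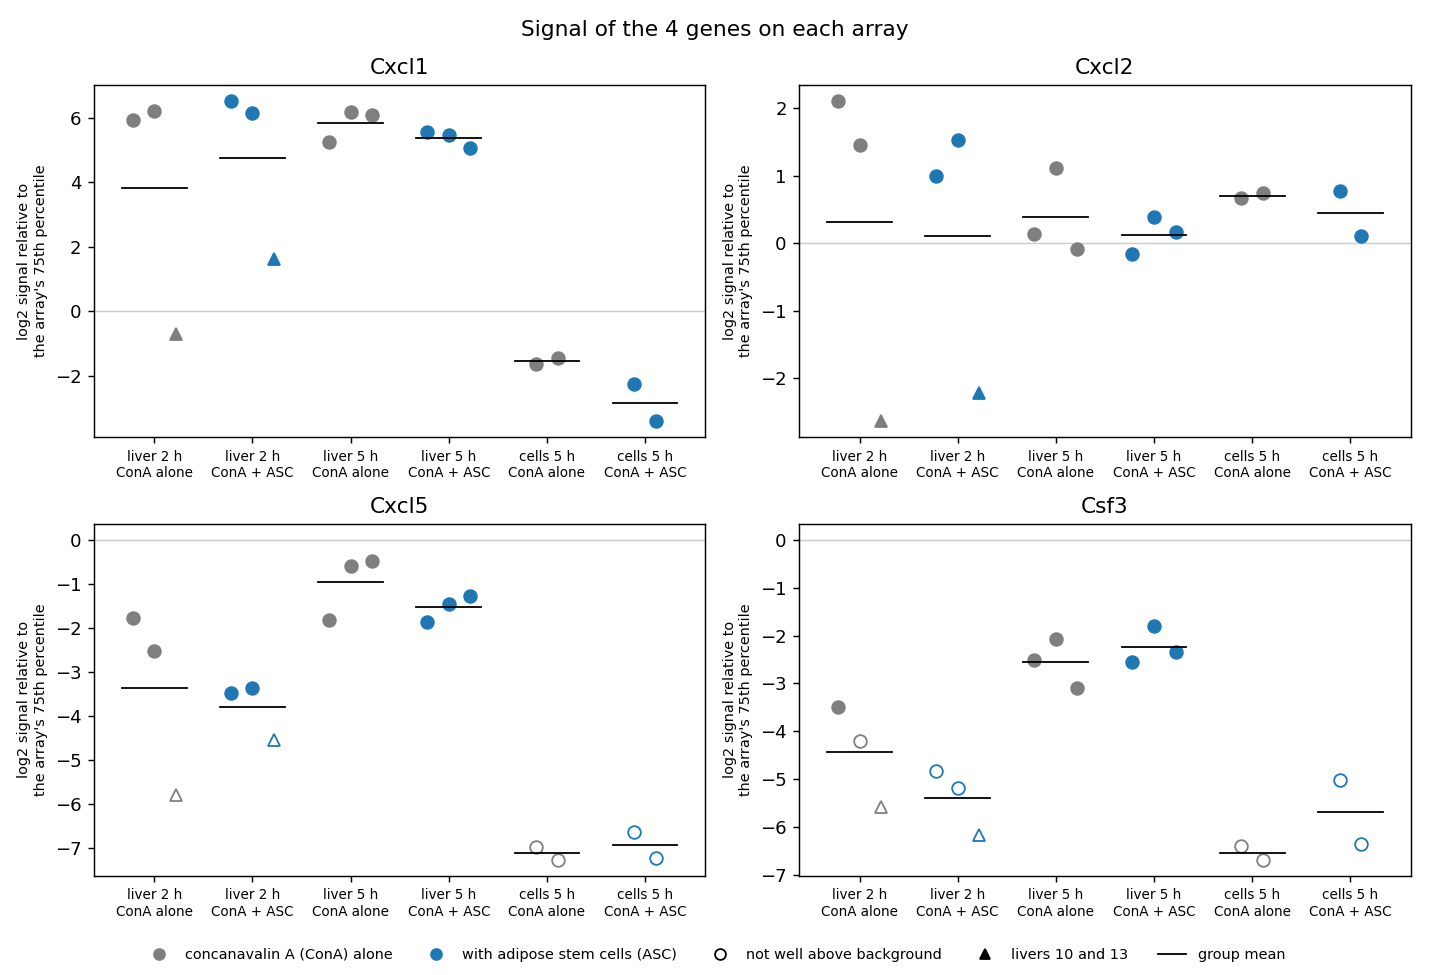
Log2 signal of Cxcl1, Cxcl2, Cxcl5 and Csf3 relative to the 75th percentile of the array, 1 point per array in the 6 groups; horizontal lines are group means, open symbols mark spots not well above background and triangles livers 10 and 13. Cxcl1 separates livers from cells, Cxcl2 does not, Cxcl5 and Csf3 are at background in all 4 cell samples, and every 5 h liver exceeds every 2 h liver in Csf3.

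The passage from 2 h to 5 h in the liver was compared first with the lectin alone, which follows the course of the hepatitis without treatment. Csf3 rose (log2 change 1.86 ± 0.52 SE, limma adjusted p = 0.0371, n = 3 livers per time), with 1 of 3 livers measured at 2 h and 3 of 3 at 5 h. The size of the change is uncertain, since 2 of the 3 values at 2 h are background readings, and the gene passed the filter on dim probes mainly through the 5 h livers. It was the only 1 of the 4 genes to pass, in a comparison in which 16% of all 14265 genes tested passed (933 higher and 1355 lower at 5 h). Cxcl5 had a change of 2.40 ± 0.86 (adjusted p = 0.0830), Cxcl1 of 2.01 ± 1.73 (0.453) and Cxcl2 of 0.08 ± 1.21 (0.971), none of which passed. The Csf3 call was lost under several settings, among them no filter on dim probes (adjusted p = 0.0621), the slide as a block (adjusted p = 0.0566) and normexp background correction (change 0.58), and when liver 12, 13, 4, 5 or 6 was left out.

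With stem cells Csf3 at 5 h exceeded its 2 h level at least 4.19-fold. At 2 h 0 of 3 livers were measured and at 5 h 3 of 3. The rise can therefore not be ranked against that with the lectin alone. The limma p-value (adjusted p = 0.00398) comes from the readings, background at 2 h, and does not test the bound. Again Csf3 was the 1 member of 4 that passed, beside 18.8% of all genes. The Cxcl5 change of 2.26 ± 0.86 did not pass (adjusted p = 0.0936). Cxcl1 (0.59 ± 1.73) and Cxcl2 (0.03 ± 1.21) had adjusted p of 0.856 and 0.992. Under normexp correction, with an offset of 50 signal units, the Csf3 change was 0.19 and did not pass. The processed signals of the 2 h spots were 4.14 to 9.42 units. The cause of the lost call was not tested.

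Without livers 10 and 13 the time changes were above 0 for Csf3 and Cxcl5 and below 0 for Cxcl1 and Cxcl2. With the lectin alone, Csf3 had 1.29 ± 0.35 (limma adjusted p = 0.0454) and Cxcl2 -1.39 ± 0.37 (0.0434), which put 2 of 4 members under the threshold beside 13.4% of all genes. With all 12 livers the Cxcl2 change was 0.08, and leaving out the lowest 2 h livers can only raise the 2 h mean of these genes. Cxcl5 had 1.19 ± 0.41 (adjusted p = 0.0892) and Cxcl1 -0.24 ± 0.30 (0.631). With stem cells, Csf3 (2.77 ± 0.35, adjusted p = 0.00111) and Cxcl5 (1.88 ± 0.41, adjusted p = 0.0130) were under the threshold, 2 of 4 beside 20.1% of all genes, while Cxcl1 (-0.97 ± 0.30, adjusted p = 0.0518) and Cxcl2 (-1.13 ± 0.37, adjusted p = 0.0664) had values below 0 that did not pass. The 2 h groups then hold 2 livers each.

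**Figure D2:**
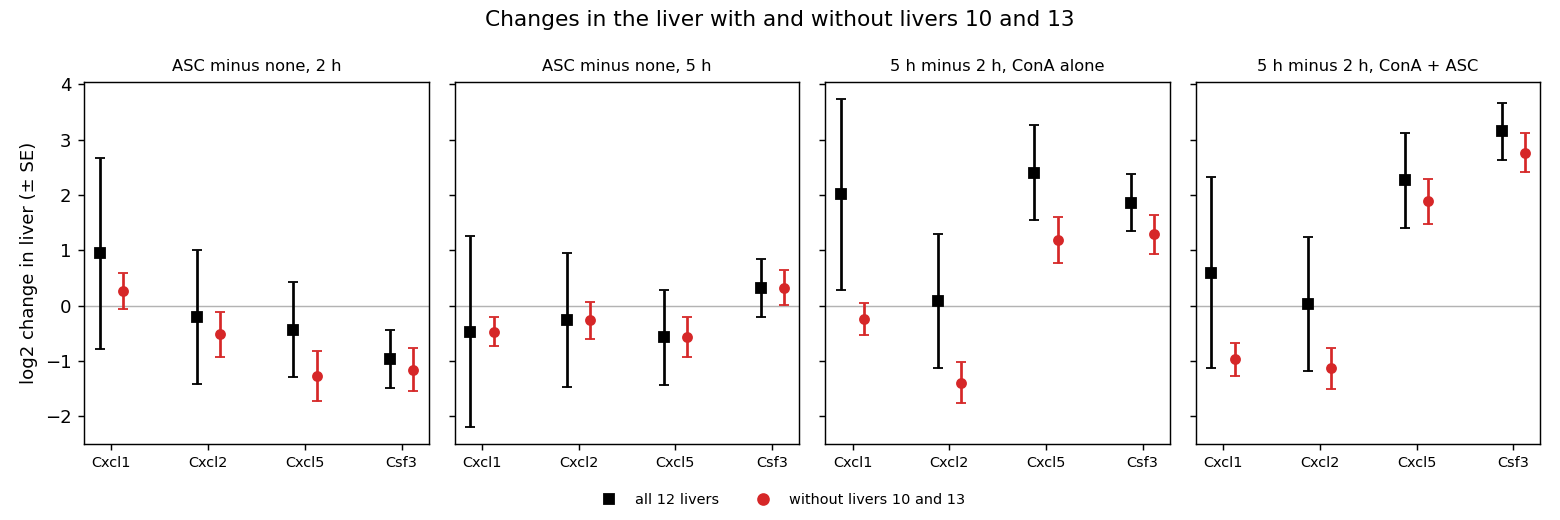
Log2 changes of the 4 genes in the liver with their SEs, for stem cells against none at 2 h and 5 h and for 5 h against 2 h with the lectin alone and with stem cells; black squares use all 12 livers and red circles leave out livers 10 and 13. Without those livers the errors shrink, Cxcl5 and Csf3 stay above 0 in both time comparisons, and Cxcl1 and Cxcl2 lie below 0 in both.

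A ratio within 1 array is not touched by the array's scaling, and the ratio of Cxcl5 to Cxcl2 was therefore followed over time. The log2 difference Cxcl5 minus Cxcl2 was -4.88 to -2.33 in the 6 livers at 2 h and -1.94 to -0.39 in the 6 at 5 h, without overlap. The means were -3.78 ± 0.92 and -1.51 ± 0.57 (SD, n = 6). Cxcl5 was dim in livers 10 and 13, and with its signal there raised to the array's lowest measured level, liver 13 came to -1.07 and overlapped the 5 h livers. The pair was chosen after the values were seen, from 6 computed, and was not tested.

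**Figure D3:**
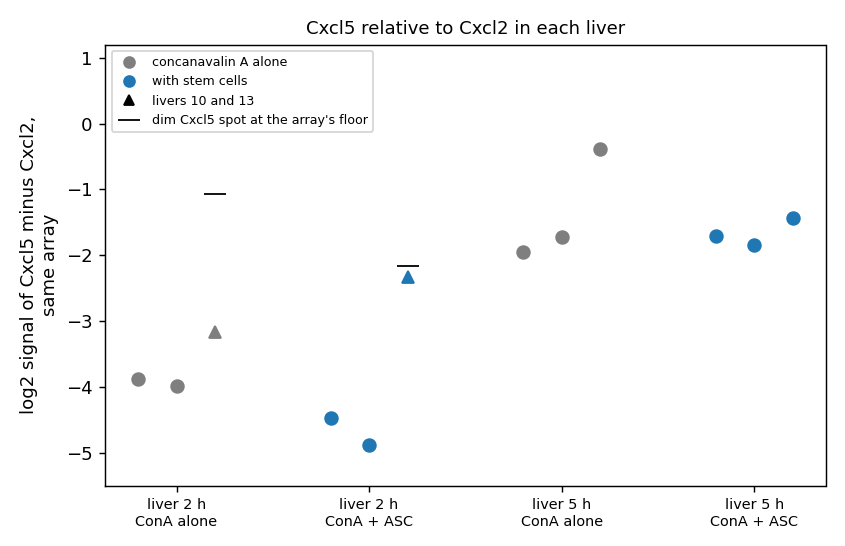
Log2 signal of Cxcl5 minus that of Cxcl2 on the same array, 1 point per liver in the 4 liver groups; short black bars show livers 10 and 13 (triangles) with the dim Cxcl5 spot raised to the array's floor. The 2 h livers lie between -4.88 and -2.33 and the 5 h livers between -1.94 and -0.39.

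Each of 3 liver slides held 1 array of each liver group, which allowed the change to be read within a slide. For Csf3 the 5 h minus 2 h difference was 1.69, 1.43 and 2.47 with the lectin alone and 2.27, 3.81 and 3.37 with stem cells, above 0 on every slide. Cxcl5 was above 0 on every slide too, at 0.72, 1.16 and 5.32 with the lectin alone and 1.60, 3.28 and 1.90 with stem cells. Cxcl2 gave -1.32, -0.99 and 2.55 and then -1.16, 2.38 and -1.14, and the positive value in each set came from the slide that held liver 13 or liver 10.

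Stem cells given with the lectin were compared with none in the 2 h livers, the early treatment of the study. None of the 4 genes passed (0 of 4, also at an unadjusted p under 0.05), beside 0.0210% of all genes (3 of 14265; 800 at an unadjusted p under 0.05). The changes were 0.95 ± 1.73 for Cxcl1 (adjusted p = 0.911), -0.21 ± 1.21 for Cxcl2 (0.975), -0.43 ± 0.86 for Cxcl5 (0.920) and -0.97 ± 0.52 for Csf3 (0.869). These SEs include livers 10 and 13. Within slides the Cxcl1 difference was 0.30, -4.28 and 6.83, the large values falling on the slides of livers 10 and 13.

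Without these livers the 2 h comparison still called none of the 4 genes, beside 3.13% of all genes (446, of which 356 were lower with stem cells). The unadjusted limma p was under 0.05 for Cxcl5 (0.0203) and Csf3 (0.0157), as for 2476 of all 14265 genes. Cxcl5 had -1.27 ± 0.45 (adjusted p = 0.189), at n = 2 per group. Csf3 had -1.16 ± 0.38 (adjusted p = 0.168), but 3 of its 4 values here were background readings. Cxcl2 had -0.52 ± 0.41 (adjusted p = 0.573) and Cxcl1 0.26 ± 0.33 (0.756). Of genes upstream of the chemokines or beside them in neutrophil entry, limma called 0 with all 12 livers among 15 inducing cytokines and receptors, 19 NF-kB and mRNA decay regulators and 11 adhesion genes (3, 1 and 0 at an unadjusted p under 0.05). Without livers 10 and 13 it put 6, 5 and 4 of them lower and 0 higher, calls that rest on the choice of those livers.

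The later treatment, with stem cells at 3 h, was set against none in the 5 h livers. None of the 4 genes passed (0 of 4, also at an unadjusted p under 0.05), beside 0.0351% of all genes (5 of 14265; 1774 at an unadjusted p under 0.05). The changes were -0.47 ± 1.73 for Cxcl1 (adjusted p = 0.934), -0.26 ± 1.21 for Cxcl2 (0.949), -0.57 ± 0.86 for Cxcl5 (0.815) and 0.32 ± 0.52 for Csf3 (0.831), and the groups overlapped in all 4. With livers 10 and 13 left out of the pooled spread, the SEs fell to 0.27, 0.33, 0.36 and 0.31 and again 0 of 4 passed, beside 0.322% of all genes. Over both times the mean effect was 0.24 ± 1.22 for Cxcl1, -0.23 ± 0.85 for Cxcl2, -0.50 ± 0.61 for Cxcl5 and -0.32 ± 0.37 for Csf3, with 0 of 4 called beside 0.0351% of all genes and 0 of 4 at an unadjusted p under 0.05.

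Whether the effect of stem cells differed between the schedules was tested as an interaction, which also tests whether the time change differed with treatment. None of the 4 genes passed, beside 0.0140% of all genes, and 0 of 4 had an unadjusted p under 0.05. Csf3 had the largest ratio of change to error (1.29 ± 0.73, adjusted p = 1.00), and Cxcl1 had -1.42 ± 2.44, Cxcl2 -0.05 ± 1.71 and Cxcl5 -0.14 ± 1.22. The rise of Csf3 with stem cells was thus not shown to differ from the rise without them. At 2 h Csf3 was measured in 1 of 3 livers without stem cells and 0 of 3 with them. Its interaction rests largely on background readings and could not show whether the rises differ.

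In the inflammatory cells at 5 h, only Cxcl1 and Cxcl2 were bright enough to be tested. Cxcl1 was 2.44-fold lower with stem cells (-1.29 ± 0.47, n = 2 per group) and did not pass (adjusted p = 0.242). Cxcl2 had -0.25 ± 0.39 (adjusted p = 0.751). None of the 2 passed, and 1 had an unadjusted p under 0.05, beside 0.0145% of all genes called (2 of 13821; 2490 at an unadjusted p under 0.05). Among the colony-stimulating factors 1 of 7 was called lower: Il3, a T cell product that acts on marrow progenitors. It was lower by at least 32.0-fold in the treated samples, at -6.69 ± 0.51 and not well above background against 0.39 ± 0.07. Il3 passed the filter on dim probes only through the untreated samples. Its limma p-value (adjusted p = 0.0201) uses the background readings and does not test the bound. The call was lost without sample 989 (adjusted p = 0.0720).

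Marker levels of several cell types differed between these cell samples. The summed linear signal of 18 measured neutrophil markers was 648 to 684 with stem cells and 162 to 237 without, and that of 9 Kupffer cell and macrophage markers was 128 to 161 against 33.5 to 73.5. Hepatocyte markers were also above 0 in all 11 tested (median change 0.95, 0 called and 1 at an unadjusted p under 0.05), with sums of 193 to 464 with stem cells and 106 to 250 without. A linear sum is weighted toward the brightest markers of a list. None of the 18 neutrophil markers passed on its own (7 at an unadjusted p under 0.05; median change 0.82 against 0.09 over all genes). The part of cell composition in the Cxcl1 difference was not tested. In bulk RNA, fewer cells of a type and less RNA per cell cannot be told apart.

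Between the cells and the livers at 5 h, 3 of the 4 genes were lower in the cells in each treatment arm. With the lectin alone 61.1% of all genes passed this comparison, and with stem cells 63.9%. Cxcl1 was 165-fold lower in cells with the lectin alone (-7.37 ± 1.76, adjusted p = 0.00266) and 290-fold lower with stem cells (-8.18 ± 1.76, adjusted p = 0.00121). For Cxcl5 the cells were lower by at least 14.3-fold (adjusted p = 4.69e-05) and at least 8.43-fold (adjusted p = 0.000137) in the same order. For Csf3 the bounds were 4.73-fold (adjusted p = 6.10e-05) and 5.19-fold (adjusted p = 0.000192). Cxcl5 and Csf3 were at background on all 4 cell arrays and passed the filter on dim probes only through the livers. Their p-values come from those background readings and do not test the bounds.

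Cxcl2 differed from the other 3 in that its levels overlapped between cells and liver. Its change was 0.31 ± 1.23 with the lectin alone (adjusted p = 0.843) and 0.32 ± 1.23 with stem cells (adjusted p = 0.834). Normexp correction ended the calls of Cxcl5 (-0.87) and Csf3 (-0.21) with stem cells and that of Csf3 (-0.92) with the lectin alone. The cells were hybridised on a slide of their own, so tissue and slide cannot be told apart. The effect of stem cells was not found to differ between the tissues in any of the 4 genes (0 of 4 called and 0 of 4 at an unadjusted p under 0.05, beside 2.34% of all genes). That interaction was -0.82 ± 2.49 for Cxcl1, 0.01 ± 1.74 for Cxcl2, 0.76 ± 1.25 for Cxcl5 and 0.53 ± 0.83 for Csf3. For Cxcl5 and Csf3 the cell side consists of background readings, so their tests could not show whether the effect differed.

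Cxcr2, the receptor for the 3 chemokines on neutrophils, was measured in both tissues. Its group means in liver were -2.75 ± 1.34 and -2.58 ± 1.21 at 2 h without and with stem cells, and -1.27 ± 0.44 and -0.60 ± 0.14 at 5 h (SD, n = 3). The change from 2 h to 5 h was 1.48 ± 0.68 with the lectin alone (adjusted p = 0.158) and 1.98 ± 0.68 with stem cells (adjusted p = 0.0663). Without livers 10 and 13 it was 0.71 (adjusted p = 0.0793) and 1.29 (adjusted p = 0.00607). In the cells Cxcr2 was at -2.02 ± 0.41 without and -1.41 ± 0.61 with stem cells (n = 2), and it was not called different from liver in either arm (adjusted p = 0.387 and 0.339).

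Csf3r, the receptor of the Csf3 product on granulocytes, went from -3.04 ± 1.01 to -2.03 ± 0.04 between 2 h and 5 h with the lectin alone (1.01 ± 0.43, adjusted p = 0.131) and from -3.01 ± 0.55 to -2.25 ± 0.11 with stem cells (0.76 ± 0.43, adjusted p = 0.247), or by 0.46 and 0.49 without livers 10 and 13. It was higher in cells than in liver with stem cells (1.67 ± 0.51, adjusted p = 0.0119), a call lost without cell sample 989 (adjusted p = 0.155), and not called with the lectin alone (0.64 ± 0.51, adjusted p = 0.301). Ackr1, the venular receptor that binds and displays such chemokines, rose in the livers with stem cells (0.97 ± 0.20, adjusted p = 0.0105) and had 0.56 ± 0.20 with the lectin alone (adjusted p = 0.0871). The single Cxcr1 probe was well above background on 1 of 16 arrays and was not tested. For stem cells against none in liver, 0 of 7 tested receptors were called at either time (1 at an unadjusted p under 0.05 at 2 h and 0 at 5 h). The shares of all genes called there were 0.0210% and 0.0351%.

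Syndecans are proteoglycans that hold chemokines on cell surfaces. With the lectin alone 5 of 8 tested receptors and binding proteins were lower in cells than in liver and none was higher, a share like the 61.1% of all genes called, among them Sdc1 (-5.28), Ackr1 (-3.52) and Sdc4 (-3.29). With stem cells 4 were lower and 1, Csf3r, higher, beside 63.9% of all genes called. Sdc4 also rose from 2 h to 5 h in the livers with stem cells (1.11 ± 0.33, adjusted p = 0.0388).

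Of the other ELR chemokines, Cxcl3 was tested in both tissues, with liver group means of -2.93 ± 2.57 and -3.82 ± 2.47 at 2 h without and with stem cells and -1.31 ± 0.53 and -0.55 ± 0.58 at 5 h. Its time change did not pass with the lectin alone (1.62 ± 1.32, adjusted p = 0.428) or with stem cells (3.27 ± 1.32, adjusted p = 0.110), and without livers 10 and 13 it had 1.88 ± 0.44 in the second (adjusted p = 0.0177) and 0.14 ± 0.44 in the first (adjusted p = 0.862). Ppbp, a platelet chemokine gene, was higher in cells than in liver, by 3.82 ± 0.45 with the lectin alone (adjusted p = 8.72e-06) and by 4.68 ± 0.45 with stem cells (adjusted p = 1.20e-06). The 2 Cxcl15 probes were well above background on 0 of 16 arrays.

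Among cytokines that induce these chemokines and their receptors, 4 of 15 rose from 2 h to 5 h with the lectin alone and 3 of 15 with stem cells, and 0 fell, beside 16% and 18.8% of all genes called. The counts were 3 higher and 1 lower, and 8 higher and 1 lower, without livers 10 and 13. Il1r1, the signalling receptor for IL-1, rose by 3.16 ± 0.48 (adjusted p = 0.00410) and 3.61 ± 0.48 (adjusted p = 0.00151). Tnfrsf1a, a TNF receptor, rose by 1.14 and 1.04, and Il17ra by 2.56 with stem cells. Between cells and liver with the lectin alone, 5 of 18 tested were higher in cells, 6 lower and 7 not called, beside 61.1% of all genes called. Il1r1 and the IL-17 receptor subunit Il17rc were lower in cells (-6.43 and -6.07), and the T cell cytokine gene Ifng was higher (5.17). List medians were 0.83 and 1.04 for the time changes, beside -0.08 and -0.09 over all genes.

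The NF-kB and mRNA decay regulators had 1 of 19 called in each time comparison, below the 16% and 18.8% of all genes. These were Cebpb (0.79 ± 0.21, adjusted p = 0.0318, and 0.0855 without livers 10 and 13) with the lectin alone and Nfkb1 (1.94 ± 0.53, adjusted p = 0.0289) with stem cells. Of the 4 Nfkb1 probes, 2 had the sign of the probe used, and the mean of the probes did not pass. All 19 regulators had changes above 0 in both comparisons, with medians of 0.91 and 1.32 beside -0.08 and -0.09 over all genes. Without livers 10 and 13 the medians were 0.14 and 0.89. Of the 19, 1 was then called higher and 2 lower with the lectin alone (13.4% of all genes called). With stem cells 10 were called higher and 1 lower (20.1%). Tnfaip3, which shuts off NF-kB signalling, changed sign with those livers, as Cxcl2 did: its time change was 0.97 ± 1.58 with the lectin alone and 0.65 ± 1.58 with stem cells over all 12 livers, and -1.09 ± 0.22 and -0.79 ± 0.22 without them. It was picked out after its values were seen.

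Of 7 colony-stimulating and granulopoietic factors tested besides Csf3, 1 rose from 2 h to 5 h with the lectin alone and 2 with stem cells. The shares of all genes called were 16% and 18.8%. Kitl, the stem cell factor gene, rose by 0.99 ± 0.18 with the lectin alone (adjusted p = 0.00830) and 1.02 ± 0.18 with stem cells (adjusted p = 0.00550), and Il34, a ligand of the CSF1 receptor, by 1.29 with stem cells. Under normexp correction the Kitl change with stem cells turned to -0.17, and with the lectin alone the mean of its probes did not pass (0.67). Between cells and liver with the lectin alone, 3 of 8 tested factors were higher in cells and 3 lower, beside 61.1% of all genes called. Csf2 was higher in the cells (5.80 ± 0.97, limma adjusted p = 0.000183). Il3, at background in those livers, was at least 25.9-fold higher in the cells, opposite to Csf3. Cxcl12, the CXC chemokine that retains neutrophils in the marrow, fell in liver from 2 h to 5 h by 1.22 on the log2 scale with the lectin alone and by 0.82 with stem cells, the second call being lost without livers 10 and 13 (adjusted p = 0.0595).

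Part of the neutrophil marker list rose with time in the liver. From 2 h to 5 h, 4 of 17 tested markers rose and 0 fell with the lectin alone (median 1.58) and 7 of 17 rose and 0 fell with stem cells (median 1.68), beside 16% and 18.8% of all genes called and medians of -0.08 and -0.09 over all genes. The counts were 11 and 14 of 17 without livers 10 and 13. The granule gene Ngp rose by 2.05 ± 0.57 (adjusted p = 0.0367) and 2.56 ± 0.57 (adjusted p = 0.0137), and the lactoferrin gene Ltf by 2.60 with stem cells. The summed marker signal was 16.8 to 104 in the 2 h livers and 146 to 247 in the 5 h livers. This linear sum is weighted toward S100a9 and S100a8, whose log2 means in 5 h livers with stem cells were 7.38 and 5.33. Their time changes with stem cells did not pass (1.66 and 1.72, limma adjusted p = 0.0769 and 0.0897). The part of neutrophil number in the Csf3 and Cxcl5 changes was not tested.

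Across the 12 livers Cxcl1 followed Cxcl2 (r = 0.90) and Csf3 followed Cxcl5 (r = 0.88). Without livers 10 and 13 (n = 10) these were 0.57 and 0.82, while Csf3 against Cxcl1 went from 0.55 to -0.69 and Cxcl5 against Cxcl2 from 0.58 to -0.43. Cxcl5 against Cxcl1 went from 0.76 to -0.38, and Csf3 against Cxcl2 from 0.40 to -0.57. Csf3 was measured in 3 of 6 livers with stem cells and 4 of 6 without. Cxcl5 was measured in 5 of 6 livers with and 5 of 6 without. The other values of these genes are background readings. The livers share time groups and slides, so these values are descriptions. The genes most like Cxcl1 were Fosl2 (r = 0.99), Rgcc, Nfkbiz, Tnfaip3 and Irf1, for which r over the 10 livers was 0.83, 0.61, 0.39, 0.62 and 0.55. Those most like Cxcl2 were Rcan1 (0.98), Tnfaip3, Dusp8, Rnd3 and Ddi2, with 0.94, 0.94, 0.81, 0.77 and 0.90 over the 10 livers. The genes most like Cxcl5 were Sbno2 (0.98), Slamf1, Cd14, Clp1 and Dst (0.92 to 0.96 over the 10 livers), and those most like Csf3 were Fam241a (0.98), Gpatch2, Atp6v1a, Baz2b and G3bp2 (0.96 to 0.98).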

How the data were processed

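Liver and inflammatory cell RNA was labelled with Cy3 and hybridised to 1-colour Agilent arrays, 16 in all, per the labels. Agilent Feature Extraction 10.5.1.1 made the deposited scanner files, per the submitters' processing notes. The deposited intensity is the processed signal, background-subtracted by that software per the file headers, and the series' deposited value table held the same intensities. Here control spots were left out and log2(processed signal) was set relative to each array's 75th percentile. Genes were kept if well above background on 3 of 12 livers, 2 of 4 cell arrays or 2 of 16 arrays in the fit of both tissues, with the brightest probe per gene. limma 3.58.1 in R 4.3.3 fitted the groups, after a check on simulated data. "At least" folds set a group at background to the lowest measured signal of each array. The number of arrays limits the precision. From each gene list at most the 3 called genes with the largest changes were named, the main receptors always, and the 5 genes best correlated with each member; other ELR chemokines, and genes said to be picked out later, are exceptions. Members and lists were chosen with earlier results of these data known. Alternatives covered scaling, background, filter, probes, weights, slide and left-out arrays.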

Additional observations from a re-analysis of the deposited data

How the results depend on the processing

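All values are log2 changes unless said. Leaving out livers 10 and 13, chosen with earlier results of these arrays known (the gene list counts without them were added after seeing the data), turned Cxcl1 to -0.11 (mean stem cell effect in liver), -0.24 (5 h against 2 h, lectin alone) and -0.97 (the same with stem cells), Cxcl2 to -1.39 and -1.13 in those time comparisons, and the schedule interaction to 0.26 (Cxcl2) and 0.70 (Cxcl5); 2 members were then called in each time comparison. Array weights also called 2 in each, with Cxcl1 at -0.24 (mean effect) and -0.55 (time, stem cells), Cxcl2 at -1.15 and -0.99 (time, lectin alone and stem cells), 0.15 and -0.13 (schedule and tissue interactions) and Cxcl5 at 0.24 (schedule). Normexp, with its offset of 50 signal units, called 0 members in both time comparisons and 1 between cells and liver with stem cells. It gave 0.27 (Cxcl5) and 0.69 (Csf3) for stem cells at 2 h, -0.090 (Cxcl1) and 0.50 (Csf3) for the mean effect, -0.16 (Cxcl2, time, lectin alone), 0.23 (Cxcl2) and -0.39 (Csf3) for the schedule and 0.43 (Cxcl1) and -0.063 (Cxcl2) for the tissue interaction. With the lectin alone 0 members were called in time without the dim filter, with only the arrays compared and with the slide as a block; with stem cells, only the arrays compared called 2. Quantile normalization put Cxcl2 at -0.0033 (time, stem cells) and median scaling at -0.045 (tissue interaction). The cause of these changes was not tested.

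Leaving out each sample in turn moved the members called in time with the lectin alone from 0 to 2. Signs turned for stem cells at 2 h in Cxcl1 (-1.31 to 2.51), Cxcl2 (-1.68 to 0.95) and Cxcl5 (-1.65 to 0.37), at 5 h in Cxcl2 (-0.50 to 0.10), and for the mean effect in Cxcl1 (-0.89 to 1.02) and Cxcl2 (-0.97 to 0.34). In time they turned for Cxcl1 (-0.24 to 3.21) and Cxcl2 (-1.39 to 0.98) with the lectin alone, and for Cxcl1 (-0.97 to 1.47) and Cxcl2 (-1.13 to 0.74) with stem cells. The schedule interaction ran from -2.98 to 0.84 (Cxcl1), -1.21 to 1.42 (Cxcl2) and -0.94 to 1.08 (Cxcl5). Cxcl2 ran from -0.59 to 0.080 for stem cells in the cells, from -0.018 to 0.65 between cells and liver with stem cells, and from -0.36 to 0.34 for the tissue interaction, where Csf3 ran from -0.13 to 1.19. The groups share no replicate numbers, so samples were not paired by number, and the slide as a block was run instead.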
